A study of Mus musculus with 6 samples.

Results

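Solute carriers are membrane proteins that move ions, sugars, amino acids, nucleosides, metals and other small molecules across cell and organelle membranes, and their genes carry the symbol Slc followed by a family number. The entries described here are the 136 of 8078 in the table whose symbol stands alone, with no joined gene, and begins with Slc and a number. They belong to 39 numbered families and were sorted into 16 classes by symbol, mostly by family number. Family 6 was split, with Slc6a9 and Slc6a14 among amino acid carriers and Slc6a6 and Slc6a8 among neurotransmitter and osmolyte carriers. Proteins only named after a carrier, such as Slc9a3r1, formed a class of their own. The rule used symbols alone and no measured value. The RNA came from horizontal basal cells, a reserve of stem cells that lie on the basal lamina of the olfactory epithelium. Cells were sorted for TdTomato from 12-week-old B6 mice that carry KRT5-CreER and the Ai9 fl(Stop)TdTomato reporter, in which tamoxifen had switched on the reporter through a Cre under the keratin 5 promoter 2 weeks earlier. Keratin 5 marks basal cells of other epithelia too. The 3 injured libraries came from mice exposed to 180 ppm methyl bromide gas for 8 h, with tissue taken 18 h later, and the 3 uninjured libraries from mice without that lesion. All 6 libraries carry the same Cre, reporter and tamoxifen treatment, and each was pooled from several animals. Values are taken to be FPKM, fragments per kilobase of transcript scaled to library size, which are per length, so levels can be set beside each other between genes.

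Solute carriers work either as uniporters and exchangers or by coupling their cargo to a gradient of sodium or protons, and the sodium gradient is kept up by the sodium pump. Most members of the Slc25 family sit in the inner mitochondrial membrane and link the matrix to the cytosol, for example by exchanging ADP for ATP. The class called mitochondrial carriers below takes in every Slc25 gene by its number, wherever its protein sits. Several plasma membrane carriers of amino acids need a partner chain to reach the cell surface, the best known being Slc3a2, the 4F2 heavy chain. In the olfactory epithelium, carriers load neurons with chloride for the odour response and serve the supporting cells, which take up and detoxify substances of the nasal mucus.

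Marker genes bear on how these values can be read. Of 10 markers of horizontal basal cells 8 were in the table, all above the lowest value in every library, with a summed level of 273 to 527 FPKM in injured and 439 to 525 FPKM in uninjured libraries. Markers of other cell types were present too. The 5 listed sustentacular markers summed to 90.1 to 181 FPKM in injured and 264 to 293 FPKM in uninjured libraries, and the 9 listed markers of mature olfactory neurons to 132 to 397 FPKM in injured and 465 to 771 FPKM in uninjured libraries. The 9 listed markers of immature neurons and globose basal cells summed to 433 FPKM in injured replicate 2, but to 41.4 and 40.4 FPKM in injured replicates 1 and 3 and 44.3 to 68.1 FPKM without injury. Xist, which inactivates an X chromosome in female cells, had 0.0645 to 0.561 FPKM in injured and 26.98 to 33.8 FPKM in uninjured libraries. The Y-linked gene Eif2s3y was at 22.98, 29.3 and 21.1 FPKM in injured replicates 1 to 3, against 18.8, 2.73 and 2.55 FPKM in uninjured ones. Uninjured replicate 1 thus had high levels of both. A difference in the sex of the pooled mice cannot be told apart from injury. Read depth is unknown, and summed FPKM ranged from 164265 to 231755.

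None of the 135 Slc genes tested passed an adjusted p of 0.05 with limma, which compared injured with uninjured libraries over 7987 genes on the log2(FPKM + 1) scale. Over all genes 1 was called, Xist, or 0.0125%. The smallest adjusted p of an Slc gene was 0.174, for Slc15a2. At an unadjusted p of 0.05, 3 Slc genes were higher and 15 lower, which is 2.22% and 11.1% of them, beside 7.15% and 4.04% of all genes tested. In 5 Slc genes every injured library lay above every uninjured one and in 21 every injured library lay below, which is 3.7% and 15.6% of the 135, beside 12% and 6.75% of all genes. With upper-quartile scaling these counts were 5 and 34 Slc genes, beside 7.27% and 11.2% of all genes. The lower group spread over 12 of the 16 classes. A change given below is the injured mean less the uninjured mean of log2(FPKM + 1). That scale understates changes of low genes, and none of those printed passed the threshold over the 6 libraries. The median change was -0.05 for Slc genes, with 65 positive and 70 negative, and 0.16 for all genes tested, of which 62.9% were positive. Upper-quartile scaling moved both medians down alike, to -0.21 and -0.0081. In bulk RNA, fewer cells of a type and less RNA per cell cannot be told apart.

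**Figure D1:**
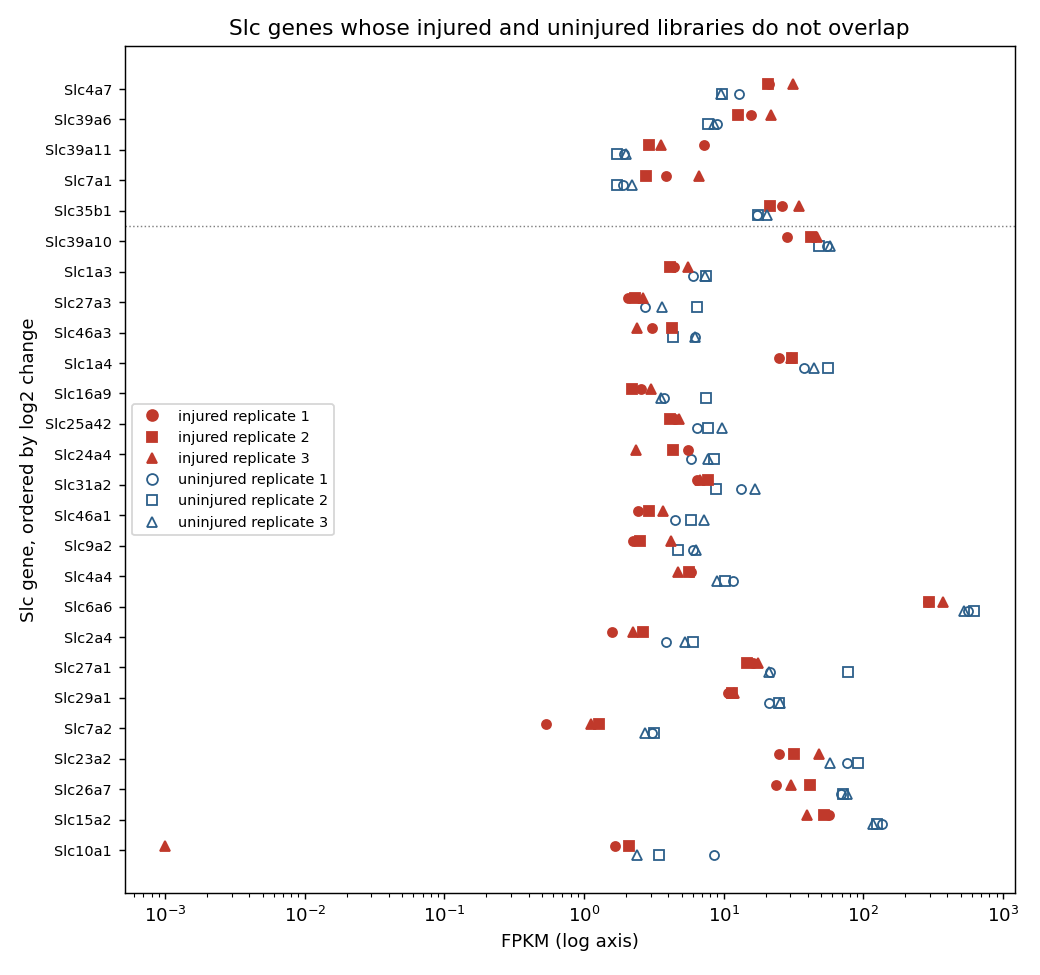
FPKM on a log axis for each Slc gene whose 3 injured libraries (filled, red) do not overlap its 3 uninjured ones (open, blue), with one marker shape per replicate number, ordered by log2 change. The 5 genes above the dotted line were higher in every injured library and the 21 below it lower, and Slc10a1 was at the table's lowest value, 0.001, in injured replicate 3.

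RefSeq's table for GRCm38.p6 held promoters of 99 of the 136 genes, as 139 windows from 250 bases before to 50 after a start. They are shown for those of the 5 higher and the 12 most strongly lower members without overlap that had a single window listed, 2 lower and 2 higher, because genes that stand apart in the same direction can be compared at their starts. Capitals mark matches, on either strand, to an AP-1 site, spelled TGANTCA, the cyclic AMP response element, spelled TGACGTCA, an E-box, spelled CACGTG, or the GC box, spelled GGGCGG. They also mark the CCAAT box by those 5 letters and the TATA box, spelled TATAAA. Each is read 5′ to 3′ on the strand of its gene, and the authors' build was mm9, so these positions apply to GRCm38.p6 alone.
Slc15a2 (lower in every injured library, chr16:36784913-36785212, minus strand): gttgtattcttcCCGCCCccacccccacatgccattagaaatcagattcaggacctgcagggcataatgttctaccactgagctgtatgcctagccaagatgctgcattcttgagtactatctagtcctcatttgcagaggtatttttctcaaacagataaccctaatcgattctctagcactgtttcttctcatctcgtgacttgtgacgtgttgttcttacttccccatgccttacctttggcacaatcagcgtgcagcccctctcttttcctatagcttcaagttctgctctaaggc
Slc46a1 (lower in every injured library, chr11:78465451-78465750, plus strand): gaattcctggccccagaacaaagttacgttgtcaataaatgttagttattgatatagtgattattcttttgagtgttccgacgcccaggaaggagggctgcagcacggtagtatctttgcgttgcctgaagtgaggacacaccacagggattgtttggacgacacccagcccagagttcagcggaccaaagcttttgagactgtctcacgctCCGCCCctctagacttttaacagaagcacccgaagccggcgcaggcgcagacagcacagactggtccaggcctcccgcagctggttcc
Slc4a7 (higher in every injured library, chr14:14718534-14718833, plus strand): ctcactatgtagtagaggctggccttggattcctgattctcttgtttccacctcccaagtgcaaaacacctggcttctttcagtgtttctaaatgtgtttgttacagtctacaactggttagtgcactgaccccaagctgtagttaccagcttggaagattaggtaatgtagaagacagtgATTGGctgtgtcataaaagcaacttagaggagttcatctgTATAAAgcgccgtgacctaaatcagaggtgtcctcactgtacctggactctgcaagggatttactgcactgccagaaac
Slc35b1 (higher in every injured library, chr11:95384606-95384905, plus strand): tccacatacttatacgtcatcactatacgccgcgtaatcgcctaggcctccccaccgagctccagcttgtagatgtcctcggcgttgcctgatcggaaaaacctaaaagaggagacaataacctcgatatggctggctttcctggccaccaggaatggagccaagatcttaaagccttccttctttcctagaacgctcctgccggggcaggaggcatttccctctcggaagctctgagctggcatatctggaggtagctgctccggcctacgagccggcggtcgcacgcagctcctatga

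The windows of Slc15a2 and Slc46a1 each held 1 GC box and none of the other motifs. That of Slc4a7 held 1 CCAAT box and 1 TATA box, and that of Slc35b1 held none of the 6. A GC box was found in 68.3% of the 139 Slc windows and in 35.7% of all 32851 windows, and an E-box in 14.4% and 7.15%. The Slc windows belong only to genes with a deposited entry, while all windows cover 27025 genes, with or without one. These shares thus do not set Slc genes apart from other genes with an entry. Of the 29 windows of members lower without overlap 58.6% held a GC box, a smaller share than over all Slc windows. Of the 6 windows of higher members 33.3% held one, so the 4 printed windows show no pattern of either group. The Slc windows were also richer in G and C, with a median of 61.0%, against 52.7% over all windows. An AP-1 site was found in 5.04% of Slc and 7.81% of all windows, a cyclic AMP response element in 2.88% and 1.79%, a CCAAT box in 35.3% and 37.4% and a TATA box in 8.63% and 13.6%. Some motif letters can overlap, and a match describes the letters alone.

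The single most abundant Slc gene in every library was Slc6a6, which imports taurine, an osmolyte and antioxidant. It stood at 288, 295 and 374 FPKM in injured replicates 1 to 3, against 557, 622 and 528 FPKM in uninjured replicates 1 to 3. No injured library reached the uninjured range, and the ratio of the means was 0.5601 (log2 change -0.84 ± 0.34 (SE, n = 3 each), limma adjusted p = 0.397). Its share of the summed FPKM of the 136 genes was 11.8%, 15.7% and 13.8% in injured replicates 1 to 3, against 22.5%, 23.9% and 20.1% in uninjured ones. The creatine importer Slc6a8, of the same family, was at 15.04, 11.6 and 21.3 FPKM in the injured libraries, against 14.8, 15.7 and 15.1 FPKM in the uninjured ones, with overlapping groups (log2 change 0.028). The vesicular monoamine carrier Slc18a2 was at 0.001, 3.19 and 0.001 FPKM in the injured libraries, against 0.001, 0.001 and 1.78 FPKM in the uninjured ones. It was the one member whose mean over the 6 libraries was under 1 FPKM, so it was not tested.

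Expression was uneven across the 136 genes. The 10 most abundant by their uninjured mean made up 50.8%, 45.4% and 49.5% of summed Slc FPKM in injured replicates 1 to 3, against 54.7%, 53.1% and 53.5% in uninjured ones. These were Slc6a6, Slc3a2, Slc15a2, Slc25a3, Slc25a5, Slc23a2, Slc26a7, Slc25a4, Slc39a10 and Slc38a2. Mean levels of at least 100 FPKM were found for 4 members in injured and 5 in uninjured libraries. Means between 5 and 20 FPKM were found for 62 members in injured and 70 in uninjured libraries, and means between 1 and 5 FPKM for 46 and 42. At least 1 library stood at 0.001 FPKM for 7 members.

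**Figure D2:**
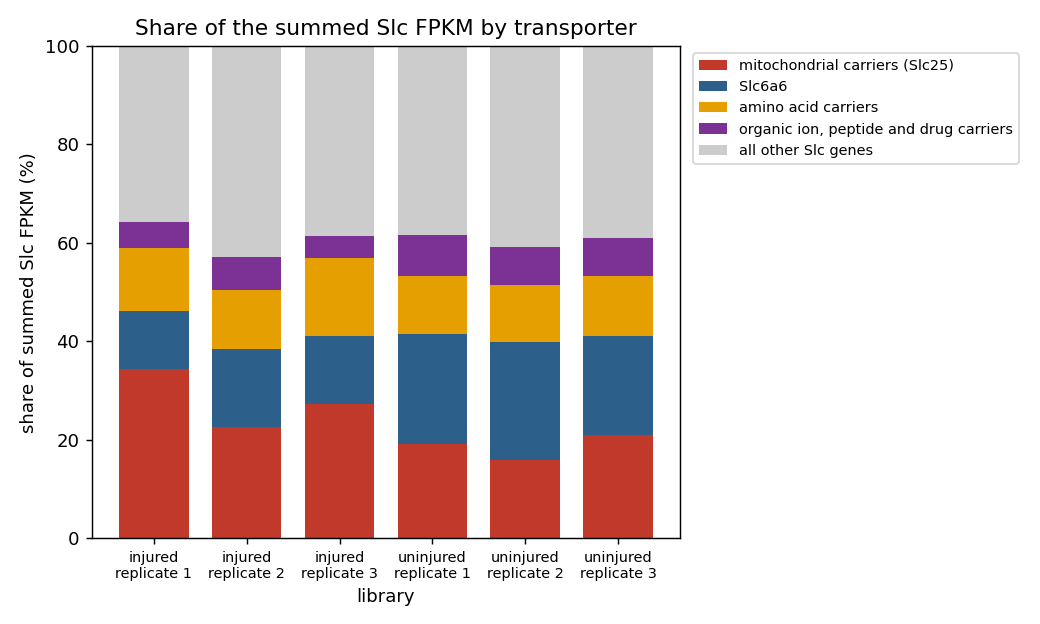
Share of the summed FPKM of the 136 Slc genes, in percent, taken by the mitochondrial Slc25 carriers, Slc6a6, the amino acid carriers, the organic ion, peptide and drug carriers and all others, one bar per library. The Slc25 share was 34.3%, 22.6% and 27.2% in the injured libraries and 19.1%, 15.9% and 20.9% in the uninjured ones, while that of Slc6a6 was lower in each injured library.

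Mitochondrial carriers, with 27 genes the largest class, had a median change of 0.24, with 19 positive and 8 negative, which upper-quartile scaling took to 0.057 and quantile normalization to 0.0057. It was the highest median of the 16 classes in the values as deposited, but without injured replicate 2 it was 0.23 and lay below those of 4 classes, and with quantile normalization below that of the phosphate class. None was higher in every injured library, beside 12% of all genes tested. In 18 of the 27 genes injured replicate 2 was the lowest of the 3 injured libraries, beside 46.8% of all genes tested. As a share of summed Slc FPKM the class made up 34.3%, 22.6% and 27.2% in injured replicates 1 to 3, against 19.1%, 15.9% and 20.9% in uninjured ones. A share can also move because another gene does, and that of Slc6a6 was lower in the injured libraries. The class share was above every uninjured one in all 3 injured libraries. Most of the signal came from Slc25a3, the phosphate carrier, and from the ADP/ATP carriers Slc25a4 and Slc25a5. Their summed level was 601, 242 and 489 FPKM in injured replicates 1 to 3, against 271, 242 and 359 FPKM in uninjured ones. The other 24 genes summed to 238, 181 and 246 FPKM in injured replicates 1 to 3, against 202, 172 and 190.4 FPKM in uninjured ones. Injured replicates 1 and 3 thus lay above every uninjured library in both sums, and injured replicate 2 within the uninjured range.

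By gene, Slc25a5 was at 273, 83.5 and 178 FPKM in injured replicates 1 to 3, against 113, 94.6 and 136 FPKM in uninjured replicates 1 to 3. Slc25a3 was at 209.9, 99.8 and 200.4 FPKM in the injured libraries, against 107, 93.8 and 149 FPKM in the uninjured ones. Slc25a4 was at 118, 58.7 and 110.4 FPKM in the injured libraries, against 51.05, 53.2 and 74.5 FPKM in the uninjured ones. In all 3 genes injured replicates 1 and 3 exceeded every uninjured library and replicate 2 did not (log2 changes 0.49, 0.49 and 0.63, limma adjusted p = 0.676, 0.627 and 0.525). Slc25a4 and Slc25a5 are close paralogs, and how reads with several matches were handled was not given in the sources used here, so the split between them is uncertain. Slc25a30 and Slc25a42 were named after their values were seen. Slc25a30 was at 8.32, 2.59 and 11.6 FPKM in the injured libraries, against 3.04, 3.95 and 3.37 FPKM in the uninjured ones, and was called when injured replicate 2 was left out (log2 change 1.29, limma adjusted p = 0.0449). Slc25a42, which brings coenzyme A into the matrix, was at 4.49, 4.14 and 4.74 FPKM in the injured libraries, against 6.43, 7.67 and 9.71 FPKM in the uninjured ones. It was the one carrier of this class below every uninjured library in all injured ones (log2 change -0.70, limma adjusted p = 0.397).

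Other proteins of the mitochondrial membranes, taken from a list that includes the outer-membrane channels Vdac2 and Vdac3, gave 8 genes tested with a median change of 0.35 and 6 positive. None passed, and 1 passed without injured replicate 2. Vdac2 was at 63.1, 34.4 and 60.5 FPKM in the injured libraries, against 38.7, 43.3 and 43.2 FPKM in the uninjured ones. Vdac3 was at 38.9, 51.1 and 26.96 FPKM in the injured libraries, against 13.9, 41.5 and 21.2 FPKM in the uninjured ones. The pyruvate carrier subunit Mpc2, listed under its older symbol Brp44, was at 55.9, 35.6 and 42.2 FPKM in the injured libraries, against 40.9, 70.5 and 50.5 FPKM in the uninjured ones. Injured replicates 1 and 3 lay above the uninjured range in Vdac2, and injured replicate 2 alone in Vdac3. The groups overlapped in all 3 genes.

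The 16 amino acid carriers had a median change of 0.10, with 10 positive and 6 negative, which turned negative with upper-quartile scaling (-0.050) and quantile normalization (-0.024). In 3 of them every injured library lay below the uninjured ones and in 1 every injured library lay above, beside 6.75% and 12% of all genes tested. The most abundant member, the heavy chain Slc3a2, was at 166, 95.9 and 181 FPKM in the injured libraries, against 128, 131 and 162 FPKM in the uninjured ones, with the injured libraries on both sides of the uninjured ones (log2 change 0.030, 95% interval -0.74 to 0.80). Its partner Slc7a5, which carries leucine and other large neutral amino acids, was at 5.79, 11.6 and 9.58 FPKM in the injured libraries, against 6.05, 5.56 and 6.98 FPKM in the uninjured ones. Its other partner Slc7a11, which takes up cystine for glutathione synthesis, was at 3.66, 1.83 and 6.07 FPKM in the injured libraries, against 2.42, 1.82 and 1.63 FPKM in the uninjured ones. For both, the groups overlapped through 1 injured library, replicate 1 for Slc7a5 and replicate 2 for Slc7a11, which lay on the uninjured level.

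The neutral amino acid exchanger Slc1a4 was at 24.98, 30.8 and 30.3 FPKM in injured replicates 1 to 3, against 37.7, 55.9 and 44.5 FPKM in uninjured replicates 1 to 3. All 3 injured libraries were below the uninjured ones (log2 change -0.65 ± 0.27 (SE, n = 3 each), limma adjusted p = 0.404). Its relative Slc1a5, the main glutamine importer of many dividing cells, was at 14.1, 5.54 and 13.7 FPKM in the injured libraries, against 7.38, 7.12 and 7.95 FPKM in the uninjured ones, higher in injured replicates 1 and 3 and lower in replicate 2 (log2 change 0.42). The glial-type glutamate importer Slc1a3 was at 4.43, 4.11 and 5.55 FPKM in the injured libraries, against 6.02, 7.42 and 7.37 FPKM in the uninjured ones, lower in each injured library, and was named after its values were seen. Slc7a1 and Slc7a2, which both carry arginine and lysine, stood apart in opposite directions. Slc7a1 was at 3.85, 2.798 and 6.63 FPKM in the injured libraries, against 1.91, 1.71 and 2.204 FPKM in the uninjured ones (log2 change 0.83 ± 0.41 (SE, n = 3 each), limma adjusted p = 0.486). Slc7a2 was at 0.533, 1.28 and 1.12 FPKM in the injured libraries, against 3.07, 3.17 and 2.72 FPKM in the uninjured ones (log2 change -1.03 ± 0.48 (SE, n = 3 each), limma adjusted p = 0.459). The groups did not overlap for either gene. Slc38a2, a glutamine and alanine importer known to be raised by amino acid shortage, was at 52.7, 47.9 and 129 FPKM in the injured libraries, against 62.3, 48.8 and 46.8 FPKM in the uninjured ones, and injured replicate 3 alone lay above the uninjured range (log2 change 0.39).

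Genes of the ATF4 response to amino acid shortage, of which 11 were tested, had a median change of 0.48 with 7 positive and 4 negative. None passed, and without injured replicate 2, 1 passed, lower. Atf4 was at 80.3, 53.5 and 110.4 FPKM in the injured libraries, against 59.3, 55.5 and 71.4 FPKM in the uninjured ones. Asns, which makes asparagine, was at 19.1, 14.6 and 17.4 FPKM in the injured libraries, against 7.64, 7.09 and 12.1 FPKM in the uninjured ones, higher in every injured library (limma adjusted p = 0.316). Nupr1, a stress-induced nuclear protein, was at 69.1, 21.3 and 59.6 FPKM in the injured libraries, against 20.6, 37.005 and 29.1 FPKM in the uninjured ones. Psph, which completes serine synthesis, was chosen after its values were seen. It was listed at 0.001 FPKM in each of the 3 injured libraries, and at 7.81, 9.95 and 9.55 FPKM in the uninjured ones (limma adjusted p = 0.0579). What the value 0.001 stands for is not given in the sources used here.

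Sugar carriers had a median change of -0.18 over 10 genes, with 3 positive and 7 negative. The general glucose importer Slc2a1 was at 49.4, 22.5 and 68.8 FPKM in injured replicates 1 to 3, against 30.2, 38.2 and 38.6 FPKM in uninjured replicates 1 to 3. Injured replicates 1 and 3 lay above every uninjured library and replicate 2 below all of them (log2 change 0.26, 95% interval -0.61 to 1.13). The insulin-responsive glucose carrier Slc2a4 was at 1.597, 2.65 and 2.25 FPKM in the injured libraries, against 3.86, 6.01 and 5.26 FPKM in the uninjured ones, lower in each injured library (log2 change -0.93 ± 0.36 (SE, n = 3 each), limma adjusted p = 0.392). The sugar efflux carrier Slc50a1 was at 21.7, 10.5 and 12.9 FPKM in the injured libraries, against 14.9, 15.99 and 19.4 FPKM in the uninjured ones. Slc37a3, of the sugar phosphate carrier family, was at 8.899, 8.24 and 11.5 FPKM in the injured libraries, against 8.93, 7.87 and 7.799 FPKM in the uninjured ones. Both overlapped between the groups.

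Among 5 monocarboxylate carriers the median change was -0.60. Slc16a1, which moves lactate and pyruvate with a proton, was at 3.504, 1.36 and 7.45 FPKM in the injured libraries, against 1.899, 1.59 and 1.16 FPKM in the uninjured ones. It was higher in injured replicates 1 and 3 and within the uninjured range in replicate 2 (log2 change 0.82, limma adjusted p = 0.575). Slc16a7, a carrier with a higher affinity for pyruvate and lactate, was at 6.23, 3.77 and 3.396 FPKM in the injured libraries, against 8.24, 6.99 and 6.08 FPKM in the uninjured ones. Its injured replicate 1 lay just above the lowest uninjured library. Slc16a11 was at 14.8, 9.32 and 6.31 FPKM in the injured libraries, against 12.1, 18.9 and 17.2 FPKM in the uninjured ones. None of these 3 separated the groups. Slc16a3, another lactate carrier, was not analysed here.

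Exchangers of protons, bicarbonate and other anions, which set the pH of cells and of the fluid around them, had a median change of -0.50, with 8 of 10 genes negative. Beside 6.75% of all genes tested that were lower and 12% that were higher in every injured library, 3 of these 10 were lower and 1 was higher. That one, the sodium bicarbonate cotransporter Slc4a7, had the largest positive log2 change of the 135 Slc genes tested, at 20.98, 20.9 and 31.3 FPKM in injured replicates 1 to 3, against 12.96, 9.71 and 9.56 FPKM in uninjured replicates 1 to 3. Every injured library exceeded the highest uninjured one (log2 change 1.10 ± 0.27 (SE, n = 3 each), limma adjusted p = 0.191), and the ratio of means was 2.27. Its relative Slc4a4, an electrogenic sodium bicarbonate cotransporter, stood lower in every injured library, at 5.84, 5.63 and 4.73 FPKM in the injured libraries, against 11.7, 10.2 and 8.94 FPKM in the uninjured ones (log2 change -0.82 ± 0.26 (SE, n = 3 each), limma adjusted p = 0.316).

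The anion exchanger Slc26a7 was at 23.7, 41.6 and 30.5 FPKM in injured replicates 1 to 3, against 69.7, 71.9 and 75.8 FPKM in uninjured replicates 1 to 3. The highest injured library lay under the lowest uninjured one (log2 change -1.19 ± 0.29 (SE, n = 3 each), limma adjusted p = 0.183), and the gene was called when injured replicate 2 was left out (log2 change -1.40, limma adjusted p = 0.0279). Slc9a2, an epithelial sodium proton exchanger, was at 2.24, 2.504 and 4.17 FPKM in the injured libraries, against 6.05, 4.69 and 6.34 FPKM in the uninjured ones, lower in each injured library (log2 change -0.78, limma adjusted p = 0.426). Its endosomal relative Slc9a9 was at 6.52, 11.5 and 6.13 FPKM in the injured libraries, against 11.6, 13.8 and 10.1 FPKM in the uninjured ones.

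Nucleoside and vitamin carriers had a median change of -0.64 over 7 genes, the lowest of the 16 classes in the values as deposited. Of the 7, 4 were lower in each injured library, beside 6.75% of all genes tested. With quantile normalization the median was -0.72, above the -0.74 of the monocarboxylate carriers. Slc23a2, which imports ascorbate (vitamin C), was at 25.03, 32.1 and 47.9 FPKM in injured replicates 1 to 3, against 76.9, 91.8 and 57.6 FPKM in uninjured replicates 1 to 3. No injured library reached the uninjured range (log2 change -1.11 ± 0.32 (SE, n = 3 each), limma adjusted p = 0.299). The equilibrative nucleoside carrier Slc29a1 was at 10.7, 11.6 and 11.9 FPKM in the injured libraries, against 20.99, 24.7 and 25.1 FPKM in the uninjured ones. Its injured libraries lay close together, all below the lowest uninjured one (log2 change -0.99 ± 0.24 (SE, n = 3 each), limma adjusted p = 0.183). Without injured replicate 2 it was called (log2 change -0.996, limma adjusted p = 0.0471). The proton-coupled folate carrier Slc46a1 was at 2.45, 2.903 and 3.66 FPKM in the injured libraries, against 4.44, 5.88 and 7.21 FPKM in the uninjured ones (log2 change -0.76, limma adjusted p = 0.418). The other folate importer, Slc19a1, was at 14.2, 5.76 and 4.37 FPKM in the injured libraries, against 3.63, 5.53 and 5.03 FPKM in the uninjured ones, and injured replicate 1 stood far above the other 5 libraries.

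Peptide, organic ion and drug carriers had a median change of -0.29 over 10 genes, with 3 positive and 7 negative. Slc15a2, a proton-coupled importer of di- and tripeptides, had the smallest p of all Slc genes. It was at 57.1, 51.99 and 39.3 FPKM in injured replicates 1 to 3, against 136, 125 and 118 FPKM in uninjured replicates 1 to 3. The highest injured library lay far under the lowest uninjured one (log2 change -1.35 ± 0.29 (SE, n = 3 each), limma adjusted p = 0.174), and the gene was called without injured replicate 2 (log2 change -1.39, limma adjusted p = 0.0381). Slc10a1, known as the bile acid importer of the liver, was at 1.66, 2.102 and 0.001 FPKM in the injured libraries, against 8.58, 3.42 and 2.38 FPKM in the uninjured ones, a low level that was lower in each injured library (log2 change -1.37). Slc47a1, which exports organic cations, was at 25.3, 28.1 and 45.6 FPKM in the injured libraries, against 34.4, 34.1 and 49.8 FPKM in the uninjured ones. Slc22a18, of the organic cation carrier family, was at 10.6, 7.01 and 8.59 FPKM in the injured libraries, against 8.38, 11.3 and 11.1 FPKM in the uninjured ones. Both overlapped between the groups. Slc10a3, named after its values were seen, was at 16.5, 3.99 and 15.2 FPKM in the injured libraries, against 4.48, 5.57 and 7.74 FPKM in the uninjured ones. Injured replicates 1 and 3 lay above the uninjured range and replicate 2 below it, and the gene was called higher without injured replicate 2 (log2 change 1.31, limma adjusted p = 0.0449).

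Slc15a2, Slc26a7, Slc23a2 and Slc4a4 are taken up here out of the 21 Slc genes that stood lower in every injured library. They were picked from the 21 with their values known. The summed sustentacular markers split the groups too, so that this sum and those carriers were lower together was fixed by the choice. Of 10 sustentacular markers 5 were in the table, none at 0.001, and their sum was 90.1 to 181 FPKM in injured and 264 to 293 FPKM in uninjured libraries. In injured replicates 1 to 3 the sum was 181, 126 and 90.1 FPKM. Slc15a2 and Slc4a4 fell in that order, and Slc26a7 and Slc23a2 did not. Slc24a4, taken up below beside neuron markers, fell in it too, at 5.51, 4.36 and 2.34 FPKM. An order over 3 libraries alone links no carrier to these cells. All 5 sustentacular markers had a negative change, with a median of -1.19, and 3 of the 5 did not overlap between the groups. Aldh1a1, a retinal dehydrogenase on that list, was at 75.96, 28.1 and 16.6 FPKM in the injured libraries, against 142, 109 and 122 FPKM in the uninjured ones. Summed markers of other cell types were lower in every injured library too. The 3 of 10 nasal gland markers in the table summed to 1215 to 2427 FPKM in injured and 3083 to 5013 FPKM in uninjured libraries. The 3 of 6 fibroblast markers summed to 32.8 to 101 FPKM in injured and 126 to 220.01 FPKM in uninjured libraries, and the 4 of 8 leukocyte markers to 48.6 to 65.8 FPKM in injured and 73.4 to 174 FPKM in uninjured ones. By gene these lists were mixed. Plunc, Dcn and Cd74 were lower in each injured library. A positive change was found for 1 of 3 nasal gland, 2 of 3 fibroblast and 2 of 4 leukocyte markers, Ltf, Col1a1, Col1a2, Ptprc and Fcer1g. The part of any of these cells in the carrier levels was not tested.

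Zinc carriers had 12 genes with a median change of 0.079, which turned negative with upper-quartile scaling (-0.085) and quantile normalization (-0.088). Of these genes 2 were higher and 1 lower in each injured library, beside 12% and 6.75% of all genes tested. Counts this small set the class no further apart. The importer Slc39a6 was at 15.7, 12.7 and 21.97 FPKM in injured replicates 1 to 3, against 8.94, 7.67 and 8.51 FPKM in uninjured replicates 1 to 3 (log2 change 0.89 ± 0.27 (SE, n = 3 each), limma adjusted p = 0.306). Slc39a11, a zinc carrier of the same family, was at 7.18, 2.93 and 3.58 FPKM in the injured libraries, against 1.95, 1.71 and 2.002 FPKM in the uninjured ones (log2 change 0.87 ± 0.42 (SE, n = 3 each), limma adjusted p = 0.476). For both, the lowest injured library exceeded the highest uninjured one. The plasma membrane importer Slc39a1 was at 16.7, 8.08 and 16.4 FPKM in the injured libraries, against 6.24, 10.4 and 4.99 FPKM in the uninjured ones, with replicate 2 of the injured libraries within the uninjured range (log2 change 0.83, limma adjusted p = 0.418). The importer Slc39a10, the zinc carrier with the highest uninjured mean, was at 28.2, 42.3 and 46.7 FPKM in the injured libraries, against 54.6, 47.8 and 57.9 FPKM in the uninjured ones, lower in each injured library though by a narrow margin in replicate 3 (log2 change -0.47). The zinc exporter Slc30a1 averaged 7.43 ± 3.23 FPKM in injured and 7.67 ± 1.27 FPKM in uninjured libraries (SD, n = 3 each). Slc30a9 averaged 12.7 ± 2.75 FPKM in injured and 14.2 ± 0.635 FPKM in uninjured libraries (SD, n = 3 each), so neither mean differed by more than the spread of the injured libraries. In 10 of the 12 genes injured replicate 2 was the lowest of the 3 injured libraries.

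Among 5 carriers of other metals the median change was -0.06. The copper importer Slc31a1 was at 19.6, 15.02 and 36.2 FPKM in the injured libraries, against 19.7, 23.7 and 22.3 FPKM in the uninjured ones. The iron importer Slc11a2 was at 10.99, 12.1 and 13.99 FPKM in the injured libraries, against 12.7, 16.5 and 17.7 FPKM in the uninjured ones. The heme carrier Slc48a1 was at 8.32, 5.29 and 21.6 FPKM in the injured libraries, against 10.6, 7.98 and 13.5 FPKM in the uninjured ones. In none of the 3 did the groups separate. Slc31a2, a relative of the copper importer, was named after its values were seen. It was at 6.47, 7.78 and 6.75 FPKM in the injured libraries, against 13.2, 8.79 and 16.7 FPKM in the uninjured ones, lower in each injured library. The iron exporter Slc40a1 was not analysed here.

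Nucleotide sugar carriers, which feed glycosylation in the Golgi and endoplasmic reticulum, had a median change of -0.02 over 11 genes. Slc35b1, which exchanges ATP and ADP across the membrane of the endoplasmic reticulum, was at 26.3, 21.3 and 34.6 FPKM in the injured libraries, against 17.4, 17.5 and 20.6 FPKM in the uninjured ones. It was the one member of the class that was higher in every injured library (log2 change 0.52 ± 0.27 (SE, n = 3 each), limma adjusted p = 0.495). Slc35d1, a carrier of UDP-glucuronic acid, was at 26.99, 23.5 and 44.6 FPKM in the injured libraries, against 25.9, 27.5 and 33.9 FPKM in the uninjured ones. Slc35a4 was at 44.1, 12.9 and 21.7 FPKM in the injured libraries, against 22.04, 18.5 and 15.6 FPKM in the uninjured ones, highest in injured replicate 1. The groups overlapped for both.

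Lipid and choline carriers had 6 genes with a median change of -0.14. Slc27a1, a fatty acid importer, was at 16.3, 14.6 and 17.6 FPKM in the injured libraries, against 21.5, 77.9 and 20.97 FPKM in the uninjured ones. Every injured library lay below the uninjured ones, and uninjured replicate 2 was far above its replicates (log2 change -0.99, limma adjusted p = 0.478). Without that library the change was -0.38. Its relative Slc27a2 was at 29.2, 70.9 and 12.2 FPKM in the injured libraries, against 25.7, 32.2 and 30.6 FPKM in the uninjured ones, with injured replicate 2 the highest library. The choline carrier Slc44a1 was at 27.98, 16.6 and 30.3 FPKM in the injured libraries, against 14.1, 15.9 and 17.3 FPKM in the uninjured ones, higher in injured replicates 1 and 3 (log2 change 0.59, limma adjusted p = 0.478).

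The cation, chloride and calcium carriers had a median change of -0.38 over 6 genes. The importer of sodium, potassium and chloride Slc12a2, which loads olfactory neurons with chloride, was at 21.1, 42.3 and 32.5 FPKM in the injured libraries, against 32.003, 24.4 and 32.1 FPKM in the uninjured ones, highest in injured replicate 2. The potassium chloride exporter Slc12a7 averaged 10.2 ± 1.43 FPKM in injured and 11.7 ± 4.22 FPKM in uninjured libraries (SD, n = 3 each), a difference within the larger SD. Slc24a4, a sodium and calcium exchanger that ends the odour response of olfactory neurons, was named after its values were seen. It was at 5.51, 4.36 and 2.34 FPKM in the injured libraries, against 5.81, 8.48 and 7.68 FPKM in the uninjured ones, lower in each injured library. The vesicular glutamate carrier Slc17a6, which fills the synaptic vesicles of those neurons, was at 0.996, 4.96 and 0.9903 FPKM in the injured libraries, against 3.47, 3.81 and 4.49 FPKM in the uninjured ones. Its level in injured replicate 2 exceeded every uninjured library, and those in replicates 1 and 3 lay below all of them. The 9 listed markers of mature neurons all had a negative change, with a median of -1.20, and summed to 151, 397 and 132 FPKM in injured replicates 1 to 3, against 465, 590 and 771 FPKM in uninjured ones. Without injured replicate 2 the median was -1.72 and limma called all 9 lower. The part of those neurons in the carrier levels was not tested.

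Slc17a6 is 1 of 3 genes in the phosphate, sulfate and dicarboxylate class, whose median change was 0.22. The phosphate importer Slc20a1 was at 10.9, 12.3 and 25.2 FPKM in the injured libraries, against 13.6, 11.8 and 13.02 FPKM in the uninjured ones. Its relative Slc20a2 was at 11.7, 11.5 and 39.7 FPKM in the injured libraries, against 17.3, 13.7 and 11.7 FPKM in the uninjured ones. In both, injured replicate 3 stood alone above the uninjured range. Of the 2 urea carriers, Slc14a1 was at 5.74, 4.93 and 9.52 FPKM in the injured libraries, against 12.05, 9.27 and 10.6 FPKM in the uninjured ones, with the lowest uninjured library just below the highest injured one. Slc14a2 was at 1.28, 6.38 and 0.39999 FPKM in the injured libraries, against 1.84, 1.37 and 3.59 FPKM in the uninjured ones, and its highest library was injured replicate 2.

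The symbol rule also takes in 3 entries that are not carriers. Slc9a3r1, a scaffold that holds exchangers at the apical membrane, was at 48.8, 29.1 and 66.6 FPKM in the injured libraries, against 27.8, 66.3 and 58.5 FPKM in the uninjured ones. Slc4a1ap, a nuclear adaptor protein, was at 20.7, 6.404 and 4.61 FPKM in the injured libraries, against 6.32, 5.801 and 4.63 FPKM in the uninjured ones, far above the other 5 libraries in injured replicate 1. Slc7a6os, a gene on the opposite strand to Slc7a6, was at 5.48, 9.34 and 7.16 FPKM in the injured libraries, against 12.5, 6.5996 and 5.79 FPKM in the uninjured ones. Whether counting used strand was not given in the sources used here, so reads of an overlapping partner cannot be told apart.

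**Figure D3:**
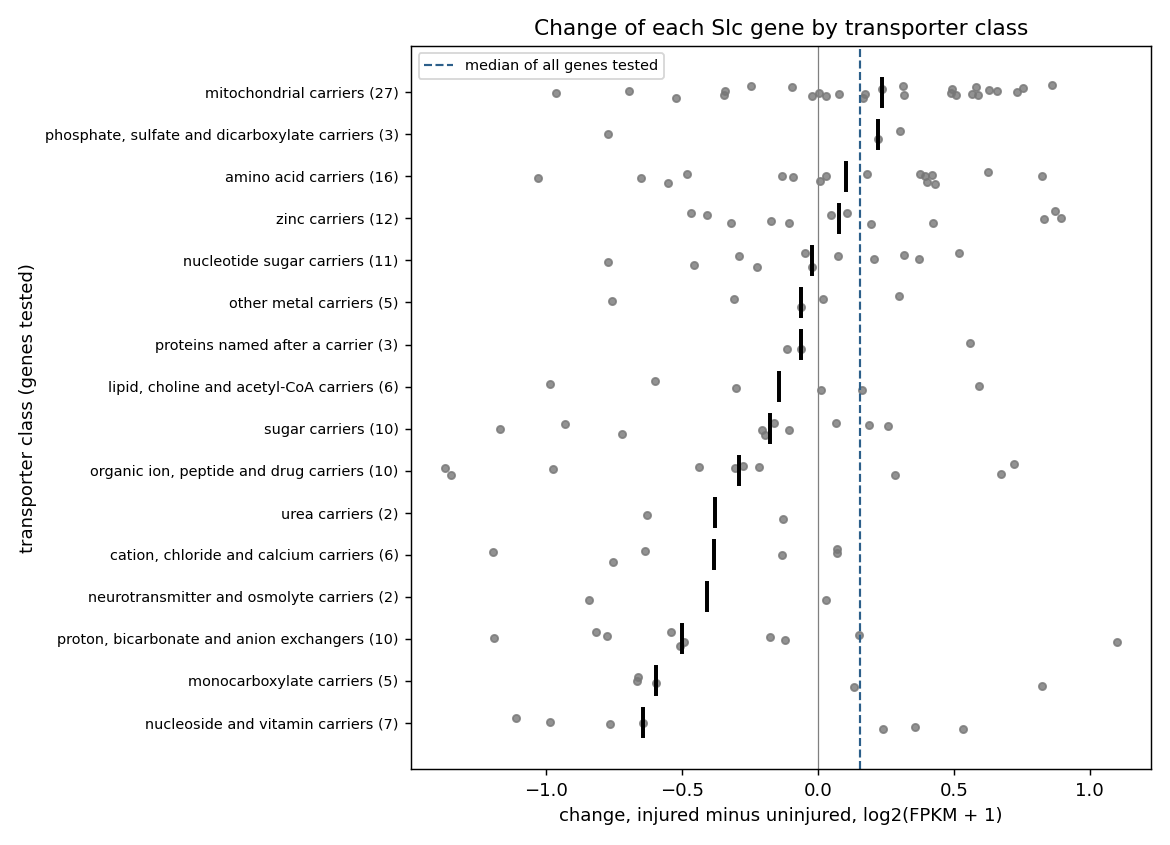
Change of each of the 135 Slc genes tested (points), given as injured minus uninjured means of log2(FPKM + 1), by transporter class with the number of genes in brackets. The black bars are class medians, from -0.64 for nucleoside and vitamin carriers to 0.24 for mitochondrial carriers, and the dashed line is the median of all genes tested, 0.16.

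The classes thus ran from the nucleoside and vitamin carriers at -0.64, the monocarboxylate carriers at -0.60 and the proton, bicarbonate and anion exchangers at -0.50 to the mitochondrial carriers at 0.24. These medians are over few genes and were not tested against each other. Much of the spread was between injured libraries. The median SD of an Slc gene on the log2 scale was 0.49 among injured and 0.25 among uninjured libraries, beside 0.46 and 0.25 for all genes. Injured replicate 2 was the lowest of the 3 injured libraries in 70 of 135 Slc genes, or 51.9%, beside 46.8% of all genes.

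The mitochondrial carriers had medians of 0.40, -0.17 and 0.25 in injured replicates 1 to 3, taken from the uninjured mean. The amino acid carriers had medians of 0.24, -0.25 and 0.43 and the zinc carriers of 0.13, -0.15 and 0.40. In these 3 classes injured replicates 1 and 3 stood above the uninjured mean and replicate 2 below it. The nucleoside and vitamin carriers, at -0.68, -0.31 and -0.53, the proton, bicarbonate and anion exchangers, at -0.74, -0.53 and -0.18, and the organic ion, peptide and drug carriers, at -0.60, -0.45 and -0.46, were below it in all 3 libraries. Leaving out injured replicate 2, limma called 2 Slc genes higher, Slc10a3 and Slc25a30, and 3 lower, Slc15a2, Slc26a7 and Slc29a1, which is 1.48% and 2.22% of them, beside 3.43% and 1.14% of all genes.

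**Figure D4:**
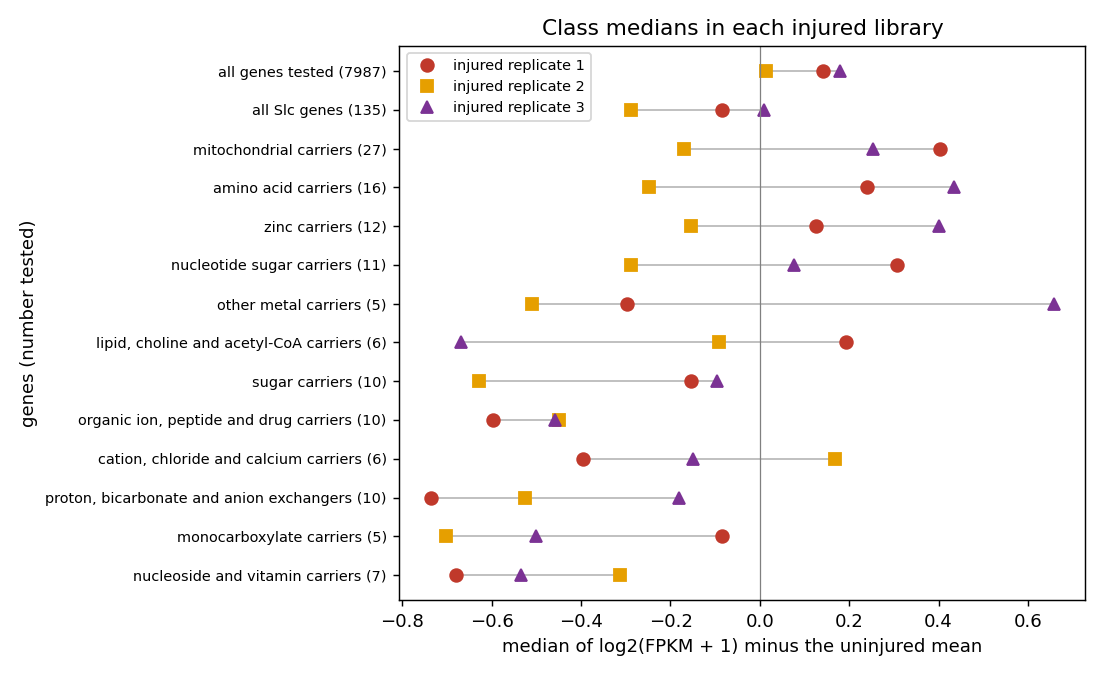
Median over the genes of a class of log2(FPKM + 1) minus the uninjured mean, for each injured library, for classes with at least 5 genes tested, all Slc genes and all genes tested. Injured replicate 2 (squares) lay at -0.17 for mitochondrial and -0.25 for amino acid carriers, where replicates 1 and 3 were above 0, while all 3 libraries were below 0 for nucleoside and vitamin carriers and for proton, bicarbonate and anion exchangers.

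The sodium pump, which maintains the gradient that many of these carriers use, had 6 genes tested with a median change of -0.24, and none passed. Its beta subunit Atp1b1 was at 221, 214 and 206 FPKM in the injured libraries, against 414, 499 and 345 FPKM in the uninjured ones, lower in each injured library (limma adjusted p = 0.362). Fxyd3, a small regulator of the pump, was at 537, 319 and 221 FPKM in the injured libraries, against 262, 700.1 and 568 FPKM in the uninjured ones. Of 6 genes on the list of proteins that bring carriers to membranes or hold them there, none passed and the median change was -0.15. Without injured replicate 2, 2 of them passed, Rtp1 and Rtp2, both lower. They bring odorant receptors to the cell surface, are also on the list of mature neuron markers, and were named after their values were seen. Emb, which brings lactate carriers to the cell surface, was at 154, 81.6 and 98.7 FPKM in the injured libraries, against 83.7, 88.7 and 99.1 FPKM in the uninjured ones, highest in injured replicate 1.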

How the data were processed

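RNA of sorted cells was sequenced from 6 libraries, 3 injured and 3 uninjured, and 1 table of values per gene was deposited. Reads were processed with FastQC, TopHat and Cuffdiff on build mm9, per the submitters' processing notes, which give no versions. No label or header names the unit, so the deposited values were taken here to be FPKM, as Cuffdiff writes them. Depth is unknown, since low values gave no whole-read steps. Rows without a gene name were left out, leaving 8078 entries, of which 7987 with a mean of at least 1 FPKM were tested. limma 3.58.1 (R 4.3.3, eBayes with trend and robust) compared injured with uninjured libraries on log2(FPKM + 1), with Benjamini-Hochberg adjustment over all genes tested and a threshold of 0.05. The script was tested on simulated data. P-values measure the spread between these libraries, each a pool of animals, and 3 libraries a group limit them.

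Transporter classes followed family numbers, except that family 6 was split and the 3 proteins named after a carrier formed their own class. The members and lists were chosen with earlier results of these data known. Named were 21 transporters (19 in the table), the 12 members of largest increase and decrease whose libraries did not overlap, the 3 most abundant of each class, and up to 3 of each list, and a few genes this rule names are not reported here. Alternatives changed the scaling, the filter, the pseudocount, the variance model, the threshold, the replicate block and the libraries used. Figures were drawn with matplotlib 3.10.9 in Python 3.11.15. Promoter sequences came from RefSeq (GRCm38.p6), which is not the authors' build, and protein sequences were not used here.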

Additional observations from a re-analysis of the deposited data

How the results depend on the processing

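Over 58 named Slc genes and 14 alternatives, 752 of 801 values kept their direction and their side of the threshold, 46 reversed and 3 newly passed, all 3 without injured replicate 2. Leaving out 1 library at a time, the count of genes called over all genes ranged from 1 to 365 and that of Slc genes from 0 to 5, with both highest counts without injured replicate 2. Slc genes at an unadjusted p of 0.05 ranged from 9, without uninjured replicate 2 or 3, to 40, without injured replicate 2. The same ranges were 8 to 29 and 26 to 33 for Slc genes higher and lower without overlap, where fewer libraries overlap less often. Shares over all genes tested are not given beside these counts at an unadjusted p or without overlap. The same holds for such counts of Slc genes under quantile normalization, the higher filter and the replicate block. None of them is read here as a result about Slc genes. Leaving out 1 library at a time gave -0.46 to -0.20 for the median of organic ion, peptide and drug carriers and -0.11 to 0.25 for that of proteins named after a carrier. Other class medians crossed 0 in the same way: -0.46 to 0.16 for lipid, -0.26 to 0.44 for phosphate, -0.40 to 0.28 for other metal, -0.15 to 0.046 for nucleotide sugar, -0.023 to 0.26 for amino acid and -0.059 to 0.19 for zinc carriers. That of all Slc genes ranged from -0.14 to 0.033, that of mitochondrial carriers from 0.11 to 0.28 and that of sugar carriers from -0.26 to -0.025. Among genes that kept their sign, Slc25a5 ranged from 0.11 to 0.95, Slc27a1 from -1.30 to -0.38 and Slc19a1 from 0.088 to 0.84. The log2 change crossed 0 within the range for Slc12a2 (-0.15 to 0.33), Slc12a7 (-0.44 to 0.066), Slc14a2 (-0.81 to 0.39), Slc20a1 (-0.13 to 0.44), Slc20a2 (-0.26 to 0.59), Slc27a2 (-0.61 to 0.62), Slc2a1 (-0.084 to 0.70), Slc30a1 (-0.38 to 0.21), Slc31a1 (-0.33 to 0.28), Slc35a4 (-0.13 to 0.72), Slc35d1 (-0.19 to 0.26), Slc38a2 (-0.054 to 0.65), Slc3a2 (-0.14 to 0.31), Slc48a1 (-0.58 to 0.34), Slc4a1ap (-0.022 to 0.95), Slc50a1 (-0.49 to 0.0053), Slc6a8 (-0.19 to 0.22), Slc7a6os (-0.31 to 0.19) and Slc9a3r1 (-0.44 to 0.25). Upper-quartile scaling gave 3 calls over all genes and medians of -0.0081 for all genes, -0.21 for Slc genes, -0.42 for organic ion, peptide and drug carriers and -0.25 for proteins named after a carrier. It also gave negative changes for Slc12a2 (-0.11), Slc27a2 (-0.17), Slc31a1 (-0.16), Slc35d1 (-0.11), Slc3a2 (-0.16) and Slc6a8 (-0.15). Quantile normalization gave 4 calls over all genes, 32 Slc genes lower without overlap, and medians of 0.0087 for all genes, -0.43 for organic ion, peptide and drug carriers and -0.22 for proteins named after a carrier. Its changes had the other sign for Slc12a2 (-0.10), Slc14a2 (0.00255), Slc27a2 (-0.11), Slc31a1 (-0.17), Slc35d1 (-0.11), Slc3a2 (-0.071) and Slc6a8 (-0.16). Upper-quartile scaling gave 34 Slc genes lower without overlap. A mean of at least 5 FPKM, which tests fewer genes, left 3 Slc genes higher and 13 lower without overlap and a median of -0.99 for nucleoside and vitamin carriers. No filter gave 0.028 for the neurotransmitter and osmolyte carriers, to which it adds Slc18a2. A pseudocount of 0.1 gave 2 calls over all genes and -0.39, and one of 0.5 gave -0.37, for organic ion, peptide and drug carriers. eBayes without trend and robust gave 6 calls over all genes. Apart from the filters, the cause was not tested.

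With the replicate number as a block, limma called 221 genes over all genes and 0 Slc genes, with 12 at an unadjusted p of 0.05. Deviations of same-numbered libraries correlated at -0.09, 0.07 and -0.08 across genes, and not every library correlated best with its own number. Such correlations, of deviations from means of 3 libraries, cannot show whether same-numbered libraries shared a day or litter. Any pairing is thus unknown. Read depth is unknown, 3 libraries a group set the precision, and a difference in sex cannot be told apart from injury.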

Other observations

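Carriers outside the symbol rule, such as the Mfsd and Slco families, were listed for 13 genes, with a median log2 change of 0.21 and 9 positive, and none passed the threshold with limma over the 6 libraries. At an unadjusted p of 0.05 the count was also 0. Mfsd1, a lysosomal carrier and the most abundant of them, was at 30.5, 29.8 and 32.96 FPKM in the injured libraries, against 28.2, 23.01 and 28.1 FPKM in the uninjured ones. The phosphate exporter Xpr1 was at 17.8, 16.1 and 20.9 FPKM in the injured libraries, against 23.7, 21.6 and 20.6 FPKM in the uninjured ones, and Mfsd6 was at 16.3, 14.8 and 13.8 FPKM in the injured libraries, against 15.3, 15.1 and 12.98 FPKM in the uninjured ones. In Mfsd1 every injured library lay above every uninjured one. Slc5a3, the inositol importer, shares a joined entry with Mrps6. That entry held 28.7, 12.8 and 32.3 FPKM for the injured libraries, against 6.98, 17.9 and 17.5 FPKM for the uninjured ones, so Slc5a3 alone cannot be read.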
